A study of Mus musculus with 4 samples.

Results

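The kinases of the ERK cascade and the RSKs that ERK activates were examined in leukemia-initiating cells (LICs), as 8 genes chosen by family: the RAF genes Araf and Braf with the scaffold Ksr1, the MEK genes Map2k1 and Map2k2, the ERK gene Mapk3, and the RSK genes Rps6ka1 and Rps6ka3. They were matched by symbol to the NCBI gene numbers of the deposited values, and all 8 were found among 27179 genes. The data are 4 RNA-sequencing libraries of murine AML cells, labelled LSC and, per the labels, sorted, from the bone marrow of C57BL/6 mice of 6 weeks. The study's results also name LICs as the cells sequenced, while its methods for sequencing speak of RNA from tissue. Of the 4 libraries, 2 were labelled wild type (WT) and 2 CD274-/- (CD274-null). According to the study's methods, both groups carried the MLL-AF9 fusion oncogene with a YFP tag, delivered by retrovirus to Lin- fetal liver cells that were then transplanted into lethally irradiated mice, and the LICs of the study are Mac-1+/c-Kit+ cells. The labels do not say whether the libraries of a group came from separate mice, so the p-values measure the spread between these libraries. Within each group the libraries differed in the RNA of sex-linked genes, with values given below. How much of the spread is technical was not tested. FPKM, the unit of every level given here, is the number of fragments scaled by gene length and by sequencing depth. Levels of different genes can thus be set side by side only as far as the gene lengths used, which are not given, are right.

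RAF kinases carry signals from activated Ras to MEK1 and MEK2, which phosphorylate the ERKs, and these in turn activate the RSK family and other substrates in the cytoplasm and nucleus. KSR1 holds RAF, MEK and ERK together and also helps to activate RAF. The cascade is known for driving proliferation downstream of cytokine and growth factor receptors in myeloid cells, and most of its steps are served by more than 1 paralog. FPKM measures RNA and says nothing of the phosphorylation through which these kinases act.

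Across the libraries, the total of reads recovered from the FPKM values on genes was between 8150891 and 10700356, and the reads of the 8 genes ran from 205 to 8278 per gene and library, both as lower bounds. The deleted gene did not separate the groups. Cd274 (NCBI gene 60533) read 2.80 and 0.945 FPKM in WT against 1.43 and 2.29 FPKM in CD274-null, so every direction below rests on the labels. The values per gene do not show from which exons its reads came. The markers of the sort and of the myeloid lineage were present in every library, with Itgam (Mac-1) between 100 and 174 and Kit between 6.59 and 19.5, lowest in WT replicate 1. The list of these markers summed to 1020 and 1014 in WT against 1867 and 1422 in CD274-null, with Mpo, the myeloperoxidase of primary granules, higher in CD274-null by the rule used below. Without Mpo, the other 4 markers summed to 575 and 611 in WT against 441 and 496 in CD274-null. Of 9 B and plasma cell markers, 4 were tested and 3 of them, Ighm, Igkc and Jchain, were higher in CD274-null by the rule used below. Their list summed to an FPKM of 31.0 and 59.3 in WT and of 313 and 401 in CD274-null, while Ms4a1, Pax5 and Mzb1 were listed at 0 in both WT libraries. Markers of mature neutrophils summed to 12138 and 2154 in WT and to 5566 and 9607 in CD274-null. The T cell markers summed to at most 3.31 in any library, and the erythroid markers to 54.9 in WT replicate 2 and at most 4.56 elsewhere. In bulk RNA, a change in the share of cells of a type and a change in RNA per cell cannot be told apart.

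The pairs of paralogs with the smallest and the largest difference in balance between the groups, the MEKs and the RSKs Rps6ka1 and Rps6ka3, are shown first by sequence, as the longest run of codons that encode the same residues in both. Each sequence is coding, 5′ to 3′, from GENCODE transcripts of GRCm38, and capitals mark the bases that differ between the members of a pair. For the MEKs it covers 70 codons in exons 5 to 7 of each gene, chr10:81119148-81119561 on the plus strand for Map2k2 and chr9:64191583-64204443 on the minus strand for Map2k1, introns included in the coordinates. For the RSKs it covers 49 codons, in exons 3 to 5 of Rps6ka1 (chr4:133867179-133869514, minus strand) and in exons 5 to 7 of Rps6ka3 (chrX:159326906-159328421, plus strand).
Map2k2: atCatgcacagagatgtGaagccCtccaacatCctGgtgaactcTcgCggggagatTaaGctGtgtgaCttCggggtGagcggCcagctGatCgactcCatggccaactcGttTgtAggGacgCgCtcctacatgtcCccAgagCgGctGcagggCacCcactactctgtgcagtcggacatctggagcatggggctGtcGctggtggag
Map2k1: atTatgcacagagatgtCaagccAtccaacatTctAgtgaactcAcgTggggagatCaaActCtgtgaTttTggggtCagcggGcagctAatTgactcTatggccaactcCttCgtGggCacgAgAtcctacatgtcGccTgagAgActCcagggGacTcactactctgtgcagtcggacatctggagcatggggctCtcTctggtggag
Rps6ka1: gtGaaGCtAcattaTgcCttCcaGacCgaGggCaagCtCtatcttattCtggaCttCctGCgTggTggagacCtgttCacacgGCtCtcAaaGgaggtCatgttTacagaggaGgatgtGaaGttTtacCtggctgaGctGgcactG
Rps6ka3: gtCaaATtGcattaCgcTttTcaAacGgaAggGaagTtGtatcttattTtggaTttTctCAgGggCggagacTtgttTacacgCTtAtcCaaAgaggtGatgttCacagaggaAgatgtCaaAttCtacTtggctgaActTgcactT

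In the MEK stretch, 32 of 210 bases differed, 30 of them at the last base of a codon, and 59.5% of the bases were G or C in Map2k2 against 52.9% in Map2k1. In the RSK stretch, 37 of 147 bases differed, 30 of them at the last base of a codon, with a GC content of 51.0% in Rps6ka1 and of 40.8% in Rps6ka3. The paralogs thus encode the same residues there with RNA of different base composition. Over whole coding sequences, the longest identical run was 17 bases for Araf and Braf and 38 bases for Rps6ka1 and Rps6ka3. It was 56 bases for Map2k1 and Map2k2, longer than the mean read length in the study's methods, so reads from that run fit both MEK genes, and how the authors' counting assigned them is not given in the sources used here.

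The 8 genes covered a wide range of levels. By the mean of the 4 libraries, Rps6ka1 was the highest with an FPKM of 229, above 98.1% of the tested genes, followed by Mapk3 with 85.8, Map2k2 and Map2k1 with 47.0 each, Araf with 29.7, Rps6ka3 with 20.7, Braf with 9.34 and Ksr1 with 8.11. Rps6ka1 exceeded Mapk3, Mapk3 exceeded Map2k2, Map2k1 exceeded Araf, and Rps6ka3 exceeded Braf in all 4 libraries. The neighbours Map2k2 and Map2k1 changed places, each being the higher in 2 of 4 libraries. Araf exceeded Rps6ka3 in 3 of 4 libraries and Braf exceeded Ksr1 in 3 of 4, so these orders do not hold beyond the spread between libraries.

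To compare the groups, log2(FPKM + 0.5) was fitted with limma for 13230 genes whose FPKM averaged 0.5 or more, a filter that all 8 genes passed. A gene was called a candidate where its fold change was above 1.5 and its p, before adjustment, under 0.01, the thresholds used for this comparison. Of the 8 genes, 2 were candidates, Mapk3 (higher in CD274-null) and Rps6ka3 (lower), where 3.63% of all tested genes were candidates, 2.39% as higher and 1.24% as lower. After Benjamini-Hochberg adjustment in limma over all tested genes, 0 of the 8 had a p under 0.05, as had 0.0756% of all tested genes. Without adjustment 2 had, where 13.7% of all tested genes had, and limma's voom on the recovered reads also gave 0 after adjustment. The candidates among the 8 genes were 1 with voom (3.47% of all genes tested there), 1 with the replicate number as a block (3.98%), 1 with that block and the GC correction described below (2.33%), each time Rps6ka3, and 0 without moderation of the variance (1.28%). The median log2 fold change was 0.12 over the 8 genes and 0.01 over all tested genes. The 2 WT values did not overlap with the 2 CD274-null values for 6 of the 8 genes, 3 higher and 3 lower, where 47.3% of all tested genes did not overlap, 25.6% as higher and 21.8% as lower.

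**Figure D1:**
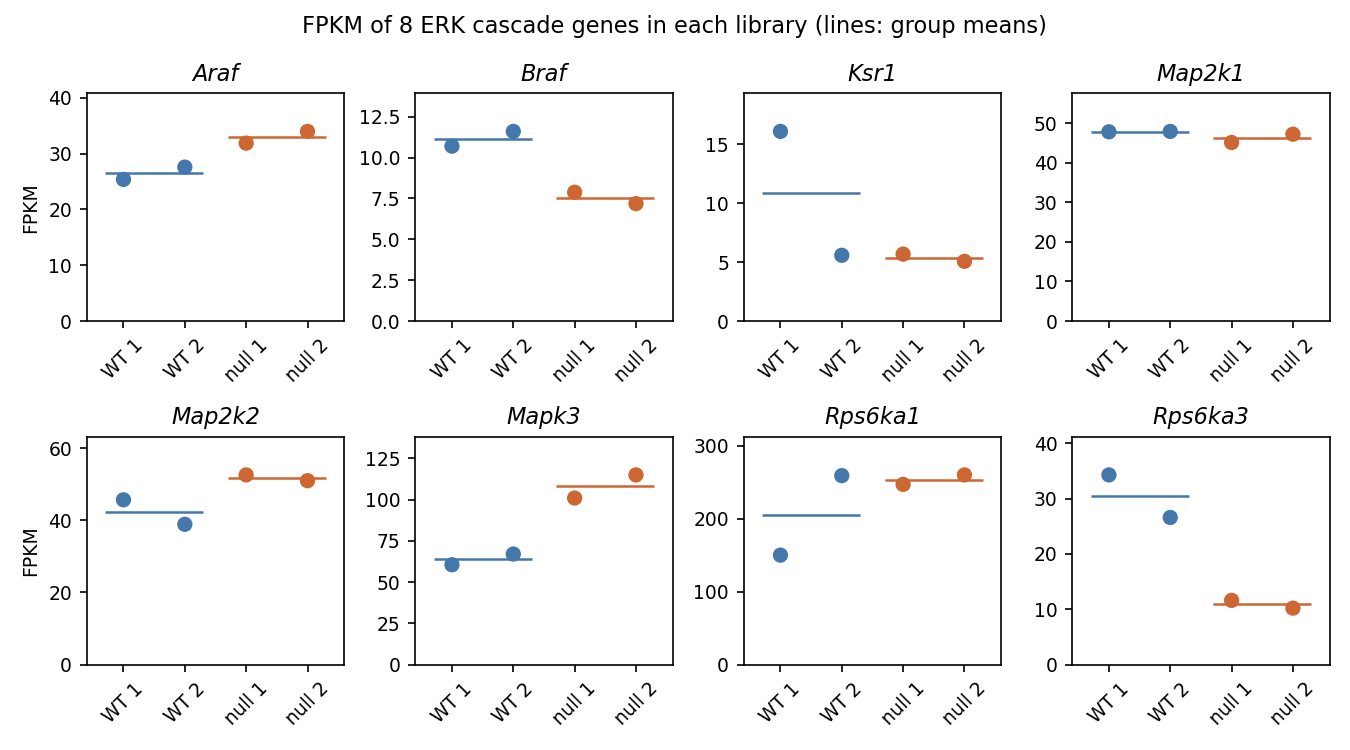
FPKM (y axis, from 0, scaled per gene) of each of the 8 genes in the WT (blue) and CD274-null (orange) libraries, 1 point per library, with lines at the group means. Mapk3 sits at 60.5 and 67.0 in WT and at 101 and 115 in CD274-null, Rps6ka3 at 34.3 and 26.6 against 11.6 and 10.2, and Ksr1 and Rps6ka1 each have 1 WT library, replicate 1, apart from the other 3.

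At the RAF level, the paralogs lay on opposite sides of WT, but neither was a candidate. Araf (NCBI gene 11836, chromosome X, 20797707 to 20860521), which encodes the RAF with the weakest kinase activity, read 25.4 and 27.6 FPKM in WT against 31.9 and 34.0 FPKM in CD274-null. Both CD274-null values lay above both WT values, with a log2 fold change of 0.31 (adjusted p = 0.536 by limma, standard error 0.21). Braf (NCBI gene 109880, chromosome 6, 39603231 to 39725658), which encodes the RAF with the strongest kinase activity, read 10.7 and 11.6 FPKM in WT against 7.88 and 7.18 FPKM in CD274-null. Both CD274-null values lay below WT, and the log2 fold change was -0.53 (unadjusted p = 0.0761 and adjusted p = 0.410 by limma, standard error 0.25). The 95% intervals, -0.19 to 0.81 for Araf and -1.15 to 0.08 for Braf, included 0.

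Araf stood above Braf in every library, 2.38-fold in both WT libraries and 4.04-fold and 4.73-fold in the CD274-null libraries. The log2 ratio of Araf to Braf was 1.25 ± 0.00 (SD, n = 2) in WT and 2.13 ± 0.16 (SD, n = 2) in CD274-null, a difference of 0.88, or 0.79 after the GC correction described below. With 2 libraries against 2, the exact permutation test, two-sided, cannot give a p below 0.333, and it gave 0.333 here and for each of the 3 ratios between paralogs compared in this way, before and after Benjamini-Hochberg adjustment over the 3. Under this test no ratio between paralogs could pass a threshold of 0.05.

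Ksr1 (NCBI gene 16706, chromosome 11, 79013440 to 79146533), the scaffold, read 16.1 and 5.58 FPKM in WT against 5.68 and 5.07 FPKM in CD274-null, from 761, 232, 205 and 206 reads. The WT libraries differed 2.89-fold from each other, and WT replicate 2 lay between the CD274-null libraries, so the groups overlapped. The log2 fold change was -0.78 (adjusted p = 0.517 by limma, standard error 0.49). It was -0.05 without WT replicate 1 and -1.5 without WT replicate 2 (unadjusted p = 0.00444 by limma). WT replicate 1 was also highest in the sum of the mature neutrophil markers and in 5 of the 7 of them, Cxcr2 among these at 19.7 against at most 2.86 in any other library. CD274-null replicate 2 was highest in the other 2, Ltf and Camp. That library, second in the sum of the list, had the lowest Ksr1. Their part in the value of Ksr1 was not tested. Ksr2, the other KSR gene, had an FPKM of 0.0141 in WT replicate 1, was listed at 0 in the other 3 libraries and was not tested.

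The MEK genes had the smallest log2 fold changes of the 8 in size, and neither was a candidate. Map2k1 (NCBI gene 26395, chromosome 9, 64185769 to 64253605), which encodes MEK1, read 47.8 and 47.9 FPKM in WT against 45.1 and 47.2 FPKM in CD274-null. The CD274-null values lay just below those of WT, with a log2 fold change of -0.05 and a 95% interval from -0.52 to 0.42 (adjusted p = 0.932 by limma). Map2k2 (NCBI gene 26396, chromosome 10, 81105913 to 81124697), which encodes MEK2, read 45.7 and 38.9 FPKM in WT against 52.6 and 51.0 FPKM in CD274-null. Both CD274-null values were above both WT values, with a log2 fold change of 0.29 and a 95% interval from -0.21 to 0.79 (adjusted p = 0.555 by limma). With 1 library left out, it ran from 0.18 (without WT replicate 2) to 0.41 (without WT replicate 1).

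Per length, MEK1 and MEK2 RNA were thus close to equal. Map2k2 made up 48.9% and 44.9% of the summed FPKM of both MEK genes in WT and 53.8% and 51.9% in CD274-null, so that Map2k1 led in both WT libraries and Map2k2 in both CD274-null libraries. The log2 ratio of Map2k2 to Map2k1 was -0.06 and -0.30 in WT against 0.22 and 0.11 in CD274-null, a difference of 0.34. After a correction of each library for the GC content of genes, described below, it was 0.28 and 0.08 in WT against 0.45 and 0.14 in CD274-null, and the groups overlapped. The sum of both genes was 93.5 and 86.8 in WT against 97.7 and 98.2 in CD274-null.

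At the level of ERK, RNA of ERK1 rose by the candidate rule. Mapk3 (NCBI gene 26417, chromosome 7, 126759626 to 126765816), which encodes ERK1, read 60.5 and 67.0 FPKM in WT against 101 and 115 FPKM in CD274-null, from 1241, 1208, 1580 and 2029 reads. Both CD274-null libraries stood clear of WT, 1.69-fold by the means. The log2 fold change was 0.75 (95% interval 0.26 to 1.25, unadjusted p = 0.00967 and adjusted p = 0.274 by limma, standard error 0.20), just inside the threshold on p. With any 1 of the 4 libraries left out it was no candidate (unadjusted p between 0.0152 and 0.0642 by limma).

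Among the RSKs, the largest difference of the 8 genes was found. Rps6ka3 (NCBI gene 110651, chromosome X, 159255665 to 159368244), which encodes RSK2, read 34.3 and 26.6 FPKM in WT against 11.6 and 10.2 FPKM in CD274-null, from at least 883, 602, 229 and 225 reads. Both CD274-null libraries were far below WT, and their mean was 35.8% of the WT mean. The log2 fold change was -1.43 (95% interval -2.03 to -0.84, unadjusted p = 9.52e-04 and adjusted p = 0.185 by limma, standard error 0.24). It was no candidate without CD274-null replicate 1 (unadjusted p = 0.0136 by limma) or CD274-null replicate 2 (unadjusted p = 0.0197 by limma). Rps6ka1 (NCBI gene 20111, chromosome 4, 133847290 to 133887797), which encodes RSK1, read 150 and 259 FPKM in WT against 247 and 260 FPKM in CD274-null. WT replicate 1 was low and the other 3 libraries were alike, so the groups overlapped (log2 fold change 0.36, 95% interval -0.38 to 1.10, adjusted p = 0.627 by limma), and without WT replicate 1 the log2 fold change was -0.03. Rps6ka2, which encodes RSK3, read 11.4 and 10.8 FPKM in WT against 10.8 and 13.6 FPKM in CD274-null (log2 fold change 0.13, adjusted p = 0.859 by limma). Rps6ka6, which encodes RSK4, was listed at 0 in all 4 libraries.

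RSK1 thus supplied most of the RSK RNA per length, by gene lengths that are not given. Its share was higher in CD274-null, where that of RSK2 was lower, but shares of a sum move against each other. The sum of the RSK genes was 196 and 297 in WT against 269 and 283 in CD274-null, so the groups overlapped in it. The share of Rps6ka1 in the summed FPKM of the RSK genes was 76.7% and 87.4% in WT against 91.7% and 91.6% in CD274-null, and that of Rps6ka3 was 17.5% and 8.97% in WT against 4.32% and 3.59% in CD274-null. Rps6ka1 stood 4.38-fold and 9.74-fold above Rps6ka3 in the WT libraries and 21.2-fold and 25.5-fold above it in the CD274-null libraries. The log2 ratio was 2.71 ± 0.82 (SD, n = 2) in WT and 4.54 ± 0.19 (SD, n = 2) in CD274-null, a difference of 1.83, or 1.43 after the GC correction. The WT libraries themselves differed, with Rps6ka1 lower and Rps6ka3 higher in WT replicate 1. Without that library the difference was 1.26, and without WT replicate 2 it was 2.41.

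**Figure D2:**
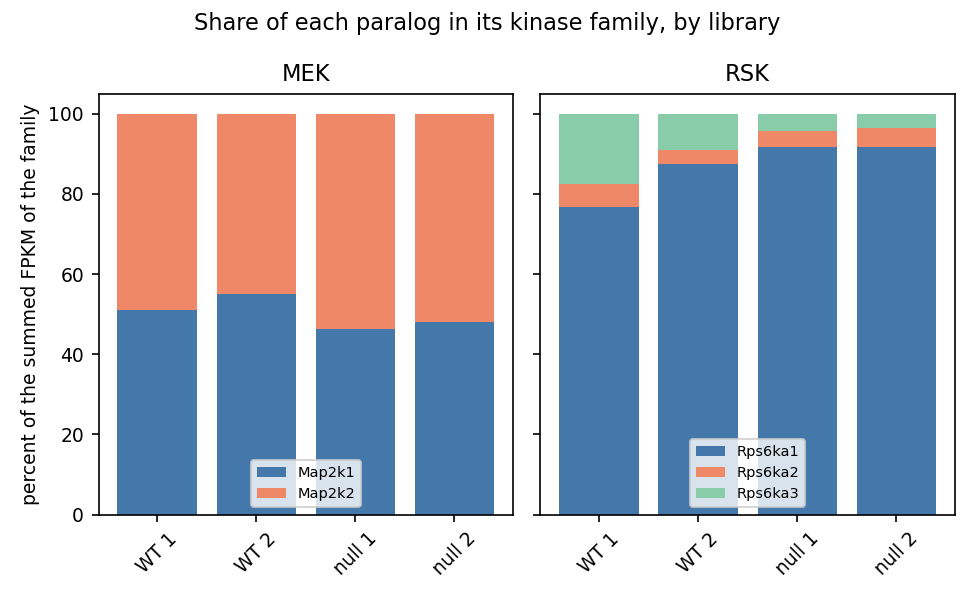
Share (y axis, percent of the summed FPKM of the family) of each paralog among the MEK and RSK genes, 1 bar per library. The share of Map2k2 is 48.9% and 44.9% in WT against 53.8% and 51.9% in CD274-null, that of Rps6ka3 17.5% and 8.97% in WT against 4.32% and 3.59% in CD274-null, and Rps6ka6, at 0 in every library, is not drawn.

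**Figure D3:**
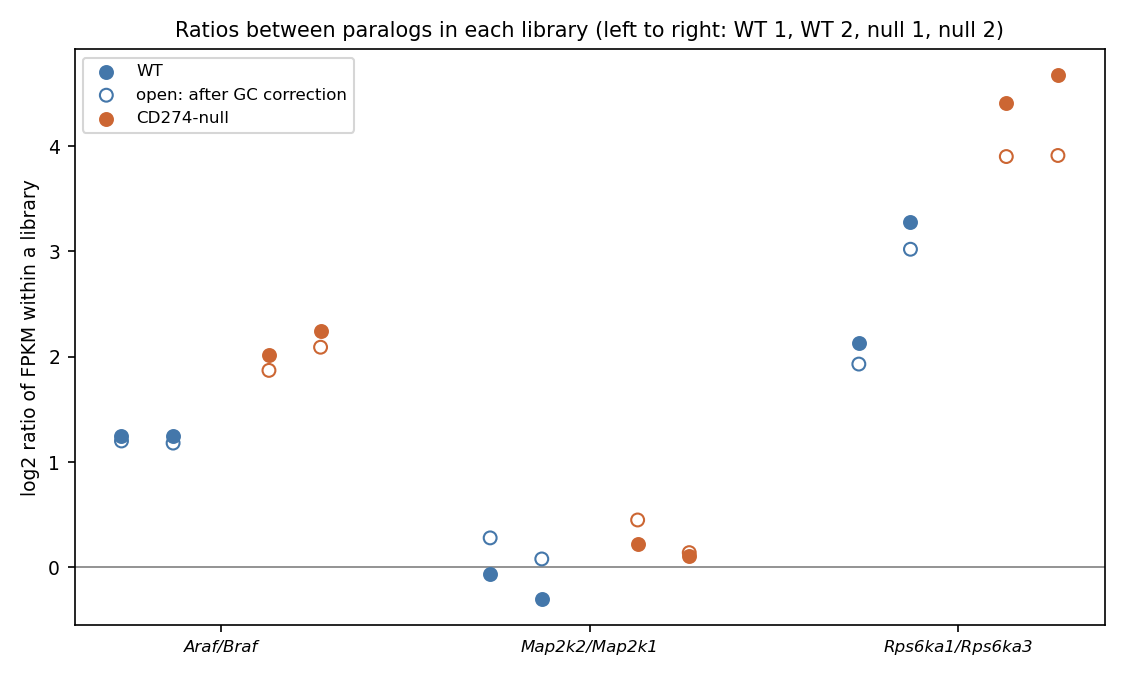
Log2 ratio of FPKM between paralogs within a library (y axis), for 3 pairs, 1 filled point per library as deposited and 1 open point after the GC correction, WT in blue and CD274-null in orange. The filled points of the groups do not overlap in any of the 3 pairs, with differences from 0.34 for Map2k2 to Map2k1 up to 1.83 for Rps6ka1 to Rps6ka3, and the open points overlap for the MEK pair.

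Araf and Rps6ka3 lie on the X chromosome, and the libraries differed in the RNA of sex-linked genes. The FPKM of Xist, the RNA that coats the silenced X chromosome in females, was 2.57 and 51.1 in WT against 107 and 68.7 in CD274-null, and Ddx3y, Eif2s3y, Kdm5d and Uty of the Y chromosome summed to 86.0 and 66.2 in WT and to 0.0460 and 29.4 in CD274-null. In WT, the library with more Xist had the lower Rps6ka3. In CD274-null, the library with more Xist had the higher Rps6ka3. Of the 384 tested genes of the X chromosome, 6 were candidates as higher and 8 as lower, with a median log2 fold change of -0.03, against 275, 140 and 0.01 for the 12100 tested genes of the autosomes. Of the X-linked members, Araf had both CD274-null values above WT and Rps6ka3 had both below. The part of sex, and that of the B and plasma cell RNA that was higher in the same libraries, in the values of Mapk3 and Rps6ka3 was not tested.

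Base composition moved with the comparison. Over the 11435 tested genes with a GENCODE transcript, the log2 fold change followed the GC content of the longest transcript (Spearman's rho 0.271 across genes, which are not independent replicates). The median log2 fold change was -0.15 in the lowest of 5 equal bins of GC content, with 26 candidates as higher and 46 as lower, and 0.21 in the highest, with 86 and 6. Rps6ka3 (GC content 40.5%) and Braf (42.6%) belonged to the lowest bin, and Mapk3 (57.6%), Rps6ka1 (57.3%), Ksr1 (57.3%) and Map2k2 (60.4%) to the highest. In each of the pairs Araf and Braf, Map2k2 and Map2k1, and Rps6ka1 and Rps6ka3, the paralog with the higher GC content had the higher log2 fold change.

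A loess correction of each library for GC content left a rho of 0.009 and was used to see how much of each difference remained. Rps6ka3 stayed a candidate, with a log2 fold change of -1.27 (95% interval -1.82 to -0.71, unadjusted p = 0.00133, adjusted p = 0.342 by limma). Mapk3 did not, with 0.54 (95% interval 0.08 to 1.01, unadjusted p = 0.0287, adjusted p = 0.369 by limma). Map2k2 went from 0.29 to 0.05 and Braf from -0.53 to -0.36, while Araf went from 0.31 to 0.43 and Ksr1 from -0.78 to -0.98, and none of these 4 was a candidate. With 2.90% of 11435 genes as candidates under this correction, 1 of the 8 genes was one.

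**Figure D4:**
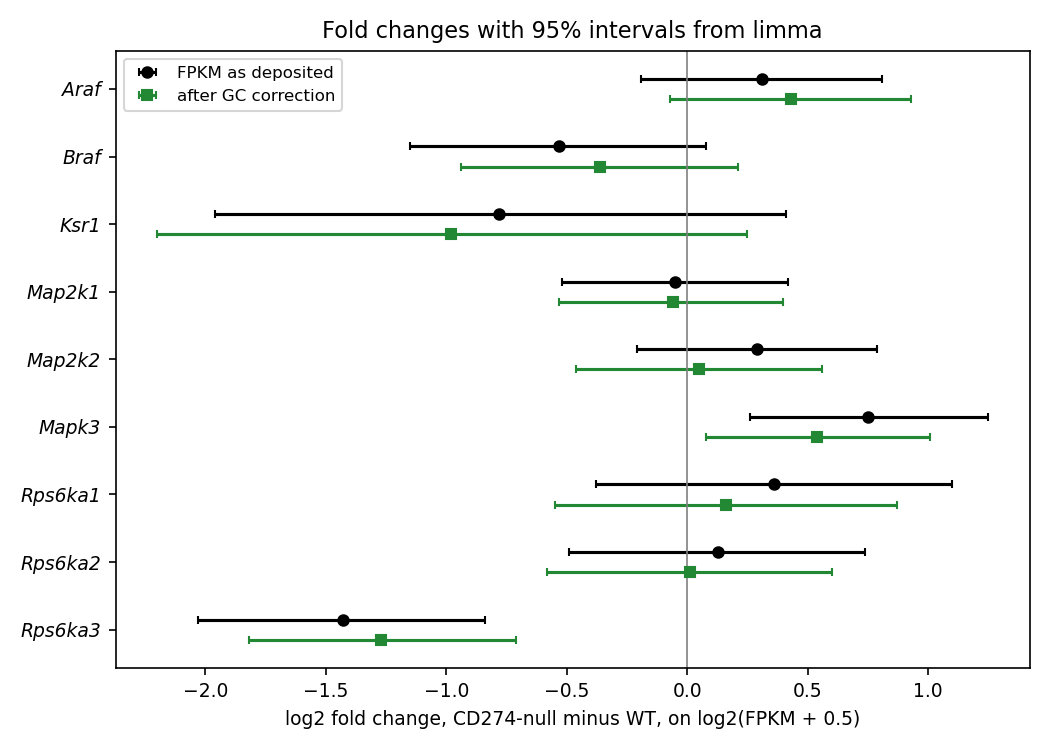
Log2 fold change, CD274-null minus WT, on log2(FPKM + 0.5) (x axis) with 95% intervals from limma, for the 8 genes and for Rps6ka2, as deposited (black) and after the GC correction (green). In both forms the intervals of Rps6ka3, -2.03 to -0.84 and -1.82 to -0.71, and of Mapk3, 0.26 to 1.25 and 0.08 to 1.01, leave out 0, and those of the other genes include it.

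**Figure D5:**
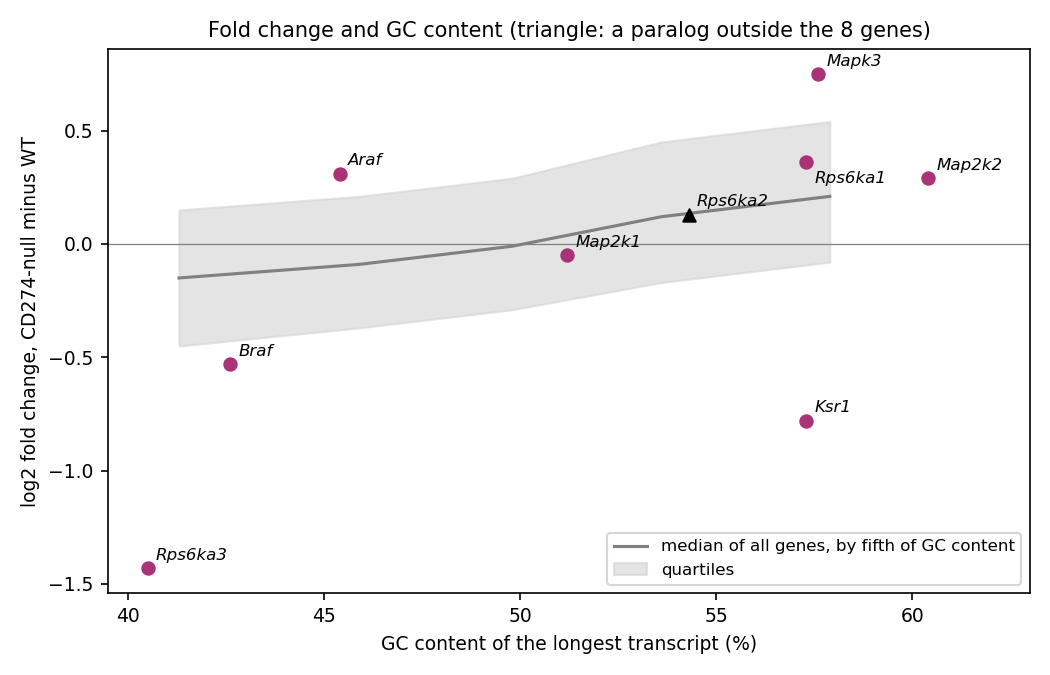
Log2 fold change, CD274-null minus WT (y axis), against the GC content of the longest transcript (x axis, percent), for the 8 genes (circles) and Rps6ka2 (triangle). The line is the median and the band the quartiles of the 11435 tested genes with a GENCODE transcript, in bins of GC content with 2287 genes each. The line rises from -0.15 to 0.21, Rps6ka3 at -1.43, Braf at -0.53 and Ksr1 at -0.78 lie below the band, and Mapk3 at 0.75 and Araf at 0.31 lie above it.

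The rest of the pathway was read from lists of genes. Of 86 listed genes of the ERK cascade and the neighbouring MAPK modules, 78 were tested, 0 were candidates as higher and 2 as lower, against 2.39% and 1.24% of all tested genes, with a median log2 fold change of -0.04. Without adjustment, 8 of the 78 had a p under 0.05 in limma, where 13.7% of all tested genes had, and 0 had after adjustment, where 0.0756% of all tested genes had. Of 28 tested scaffolds and regulators of RAF, 1 was a candidate, Iqgap1, which encodes a scaffold that binds MEK and ERK. Its FPKM was 122 and 134 in WT against 68.3 and 68.5 in CD274-null, both lower (log2 fold change -0.90 ± 0.20 as standard error, adjusted p = 0.251 by limma). Iqgap1 was no candidate with eBayes without trend (unadjusted p = 0.0115 by limma), or without WT replicate 2 (0.0120), CD274-null replicate 1 (0.0294) or CD274-null replicate 2 (0.0285). Of 6 tested ETS factors that ERK phosphorylates, 1 was a candidate, Elk4, a partner of serum response factor, with 12.3 and 13 in WT against 4.04 and 2.98 in CD274-null (log2 fold change -1.72 ± 0.29 as standard error, adjusted p = 0.178 by limma). Elk4 was no candidate without moderation (unadjusted p = 0.0125 by limma) or without CD274-null replicate 2 (0.0167). None was found among the 4 tested kinases that ERK activates beside the RSKs, the 18 tested genes of the RSK activator and substrates, the 21 tested kinases of the other MAPK modules or, of the paralogs Ksr2, Rps6ka2 and Rps6ka6, the 1 tested. In these 4 lists 1, 0, 2 and 0 genes had an unadjusted p under 0.05 from limma, to be read against the same 13.7%.

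The 8 genes did not move as 1 group. By the root mean square difference of log2(FPKM + 0.5), centred on each gene's mean over the 4 libraries, the closest were Araf and Map2k2 (0.132) and the farthest Mapk3 and Rps6ka3 (1.116). Among 8827 named genes averaging 5 FPKM or more, those nearest to Mapk3 by this measure were Itprip (0.025), Paf1 (0.026) and Stk11 (0.029). Stk11, which encodes the kinase LKB1, read 102 and 114 FPKM in WT against 163 and 190 FPKM in CD274-null. Those nearest to Rps6ka3 were Acpp (0.051), Adam9 (0.121) and Gm20056 (0.135). Acpp read 23.2 and 18.1 FPKM in WT against 8.54 and 6.91 FPKM in CD274-null. With 4 libraries, likeness of this kind is a description of these values only.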

How the data were processed

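TruSeq v2 libraries were sequenced on an Illumina platform. The labels describe the input as LSCs sorted by flow cytometry, and the study's results name LICs of both genotypes. The study's methods for sequencing speak of RNA from tissue instead, and this difference was not resolved here. TopHat2 2.0.12 was the aligner the authors used, on GRCm38 (CASAVA 1.8.2 is also named in the submitters' processing notes). For each library the authors deposited the FPKM of every gene, not log transformed. The program, gene lengths and strand setting behind FPKM are not given in the sources used here. Symbols and coordinates come from RefSeq (GRCm38.p6), which named 25275 of the 27179 gene numbers, and every column of values belonged to a labelled sample.

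The 8 genes, the lists and the tests were chosen with earlier results of these data known. Groups were compared on log2(FPKM + 0.5), for genes averaging 0.5 FPKM or more, by limma 3.58.1 (R 4.3.3) with a trended prior and Benjamini-Hochberg adjustment. Fold changes on this scale understate those of low genes. Ratios between paralogs were tested by exact permutation over libraries (scipy 1.17.1, Python 3.11.15). Named genes are the 8 genes, the paralogs Ksr2, Rps6ka2 and Rps6ka6, listed genes that were candidates, and the 3 genes most like the member with the smallest p in each direction, with Cd274 and marker genes named for checks only. Ltf, Camp and Cxcr2 were singled out after their values were seen. Ratios of a gene's FPKM values between libraries gave the smallest whole reads that fit them, for 17078 of the 17083 genes above 0 in 2 or more libraries. These are lower bounds, since a factor shared by the 4 libraries cannot be seen, and they speak to counting error only. The main fit was tested on data simulated with 1 fixed dispersion for every gene, where 82.8% of 2-fold changes and 1.16% of unchanged genes were called. That dispersion was not estimated from these libraries, so these shares need not hold here. GC content was that of the longest GENCODE transcript, and the correction was loess with a span of 0.3. Promoter sequences were not used here, and some genes are not reported here.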

Additional observations from a re-analysis of the deposited data

How the results depend on the processing

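The settings varied were the pseudocount (1 or 0.1), the filter (none, or an average of 5 FPKM), quantile normalization, equal medians, eBayes without trend, no moderation, the replicate number as a block, GC correction with and without that block, voom on recovered reads, and leaving out each library. All were planned with earlier results of these data known.

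The number of candidates among the 8 genes, 2, was 1 with the GC correction (2.90% of all genes tested there) or voom (3.47%), and 0 with no moderation (1.28%). It was also 1 with a pseudocount of 0.1, a filter at an average of 5 FPKM, quantile normalization, equal medians or eBayes without trend. The share of all genes called is not given for these settings, nor with a library left out. A general loss of calls cannot be told apart there. Mapk3 stayed a candidate in 2 of 16 alternatives (a pseudocount of 1 and no filter), with an unadjusted p by limma between 0.00788 and 0.0642 and a log2 fold change between 0.54 and 0.85. Rps6ka3 stayed one in 13 of 16, with a log2 fold change between -1.61 and -1.25. It was lost with no moderation (unadjusted p = 0.0197 by limma), without CD274-null replicate 1 (unadjusted p = 0.0136 by limma) and without CD274-null replicate 2 (unadjusted p = 0.0197 by limma), where the lone library of a group is assumed to vary like the others. Ksr1 was a candidate only without WT replicate 2 (-1.5). Rps6ka1 ranged from -0.03 (without WT replicate 1) to 0.75 (without WT replicate 2), and Rps6ka2 from -0.04 (without CD274-null replicate 2) to 0.29 (without CD274-null replicate 1). Iqgap1 was lost with eBayes without trend, and without WT replicate 2 (-0.83), CD274-null replicate 1 (-0.90) or CD274-null replicate 2 (-0.90). Elk4 was lost with no moderation and without CD274-null replicate 2 (-1.53). Counts of candidates in the lists with a library left out are not compared, since such a fit has 1 library in a group. The cause of these changes was not tested. No ratio between paralogs changed direction in any alternative run for it.

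The libraries of WT and CD274-null share replicate numbers, and deviations of the same number did not go together across genes (correlation -0.015). With 2 libraries per group, this correlation cannot decide whether the number pairs libraries, and what the number stands for is not known. With the replicate block, the number of candidates among the 8 genes was 1, Rps6ka3, also together with the GC correction. For the 3 ratios between paralogs, the exact sign-flip test over the numbers gave p = 0.5 each, the smallest it can give with 2 pairs. The exact permutation test gave p = 0.667 for Map2k2 to Map2k1 after the GC correction.

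Each value of the 8 genes rests on at least 205 reads, and each group on 2 libraries.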
